A study of Homo sapiens with 6 samples.

Results

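TMEM98 and 9 of its neighbours on chromosome band 17q11 were examined in OVCAR5 and OVCAR5R cells. The genes were taken by symbol from the deposited table: TMEM98, MYO1D, CDK5R1, ZNF207, C17orf75, RHOT1, LRRC37B, SUZ12, UTP6, and NF1. All 10 were listed among 12308 genes and all 10 passed the filter on low values that left 11766 genes. TMEM98 had been chosen for its higher values in OVCAR5R in these same libraries, and the neighbours for their position, within about 2 Mb of it. The TMEM98 values are therefore given as a description without a test, and the question was whether the genes beside it were also higher.

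RNA-seq was performed on total RNA of triplicate cultures of each cell line, so a p-value here measures the spread between these cultures. OVCAR5 is an ovarian cancer cell line that the study describes as p53 null with wild-type BRCA genes. OVCAR5R is a line derived from it by growth in rising concentrations of prexasertib (Prex), an inhibitor of the checkpoint kinase CHK1, up to 3 µM over 3 to 4 months. It was maintained in 2 µM Prex and kept without drug for 4 days or more ahead of experiments. OVCAR5R is a single derived line, so whatever else sets it apart from OVCAR5 cannot be told apart from drug resistance. The estimated depth, rounded, was 35800000 to 41300000 reads in OVCAR5 libraries and 50300000 to 55100000 in OVCAR5R libraries. Values are on the authors' normalized linear scale and are not divided by gene length, so levels are compared between libraries and not between genes.

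The members do different jobs in the cell. TMEM98 is a membrane protein with a single transmembrane segment, which is known to bind the transcription factor MYRF and the Wnt pathway protein FRAT2. MYO1D is a class I myosin, a motor that links membranes to actin. CDK5R1 is the p35 activator of the kinase CDK5. ZNF207, also called BuGZ, binds the spindle checkpoint protein BUB3 and microtubules. C17orf75 works with the WDR11 complex in capturing vesicles at the trans-Golgi network. RHOT1, also called Miro1, is a GTPase of the outer mitochondrial membrane that couples mitochondria to motor proteins. SUZ12 is a core subunit of PRC2, the complex that methylates lysine 27 of histone H3. UTP6 belongs to the small subunit processome, in which ribosomal RNA is processed. NF1 is neurofibromin, which speeds GTP hydrolysis by RAS and so lowers its activity. LRRC37B belongs to a family of leucine-rich repeat proteins.

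TMEM98 lies on the plus strand at chr17:32927910-32945106 in GENCODE release 29 on GRCh38, and no other annotated gene overlaps it. All 9 neighbours lie on the side of lower coordinates. MYO1D, the nearest, runs on the minus strand at chr17:32492522-32877177, so that the starts of MYO1D and TMEM98 face away from each other 50.7 kb apart. With distances from the TMEM98 start negative toward lower coordinates, CDK5R1 starts at −441 kb. ZNF207 and C17orf75, at −578 kb, are a divergent pair with 93 bases between them. RHOT1 starts at −785 kb, LRRC37B at −920 kb, SUZ12 at −991 kb, UTP6 at −1026 kb, and NF1 at −1833 kb.

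Promoters bear on the question because a divergent pair can share one. The RefSeq promoter table of GRCh38.p14 held 8 of the 10 members, without TMEM98 and RHOT1. The stretch before the MYO1D start and the stretch between C17orf75 and ZNF207 are shown as the start nearest to TMEM98 and as the closest divergent pair among the members. Capitals mark the GC box, GGGCGG or its reverse complement CCGCCC, searched on both strands, and the longer run near the end of the MYO1D stretch is a pair of overlapping copies. The first is read from the minus strand at chr17:32877178-32877374 and the second from the plus strand at chr17:32350024-32350116.
MYO1D upstream: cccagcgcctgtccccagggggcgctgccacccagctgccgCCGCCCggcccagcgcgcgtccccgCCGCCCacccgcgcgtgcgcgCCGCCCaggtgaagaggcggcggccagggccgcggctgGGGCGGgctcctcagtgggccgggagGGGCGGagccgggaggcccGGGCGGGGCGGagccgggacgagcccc
C17orf75 to ZNF207: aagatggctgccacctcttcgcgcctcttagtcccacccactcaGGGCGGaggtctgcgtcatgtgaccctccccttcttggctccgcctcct

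The MYO1D stretch held 7 GC boxes and 29 CpG sites in 197 bases, with a GC content of 85.3%. The stretch between C17orf75 and ZNF207 held 1 GC box and 5 CpG sites, with a GC content of 63.4%. Over the 250 bases before each RefSeq start, 42.6% of 35116 windows held a GC box, and their median GC content was 58%. Of the 9 windows of the members, those of NF1 and C17orf75 held none, and GC content went from 55.2% for C17orf75 to 83.2% for MYO1D. The RefSeq start of C17orf75 lies inside the gene as GENCODE draws it, so its window is not the stretch shown. A match to these letters describes the sequence and is not evidence of binding.

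One library stood apart from the rest. OVCAR5 replicate 2 had a Pearson r of 0.898 and 0.883 with OVCAR5 replicates 1 and 3 across genes, against 0.955 between those libraries. The cell type was checked with 5 listed markers of epithelial cells, which all 6 libraries expressed. Their values summed to 16844 in OVCAR5 replicate 2 and to 2255 to 4715 in the other 5 libraries. The epithelial surface protein EPCAM was at 597 in it against 11.9 to 31.7, and the keratin KRT19 at 1341 against 3.09 to 10.7. Marker values also differed between the lines, but with all 6 libraries no tested marker passed. The Müllerian marker PAX8 was at 8.38 to 11.4 in OVCAR5 and 4.38 to 5.66 in OVCAR5R (log2 fold change −0.86, limma adjusted p = 0.315), without overlap. Of all genes, 8.18% were lower in OVCAR5R without overlap. WT1, too low to be tested, was at 0.029 to 0.073 in OVCAR5 and 0.38 to 0.73 in OVCAR5R. In OVCAR5 it rests on 1 to 3 estimated reads a library. With OVCAR5 replicate 2 left out, the epithelial sum was 2255 to 2325 in OVCAR5 and 3536 to 4715 in OVCAR5R, with EPCAM, KRT7, KRT8, and KRT18 higher in OVCAR5R without overlap and KRT19 lower. Of these 5 only KRT7 then passed the test (log2 fold change 2.44, limma adjusted p = 0.0185). Of all genes, 13.8% were then higher without overlap and 13.7% lower. The fibroblast collagen COL1A1 was between 1.29 and 15.2. The other markers listed for leukocytes, fibroblasts, and endothelium, and CDH1 and MUC16, were not analysed here. Results are given with and without OVCAR5 replicate 2, and the part of these markers in them was not tested.

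TMEM98 was at 7.36, 7.04, and 5.02 in OVCAR5 replicates 1, 2, and 3 and at 40.1, 76.1, and 54.6 in OVCAR5R replicates 1, 2, and 3. The lowest OVCAR5R library was thus well above the highest OVCAR5 library, and OVCAR5 replicate 2 sat with its own group. The means were 6.47 ± 1.27 and 57.0 ± 18.1 (SD, n = 3 each), a ratio of 8.80. On the log2(value + 1) scale, which understates the change of low genes, the fold change was 2.92, and 2.98 without OVCAR5 replicate 2. These values rest on 198 to 302 estimated reads in OVCAR5 libraries and 2128 to 4206 in OVCAR5R libraries. In RNA from a whole culture, more cells expressing TMEM98 and more TMEM98 RNA per cell cannot be told apart.

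**Figure D1:**
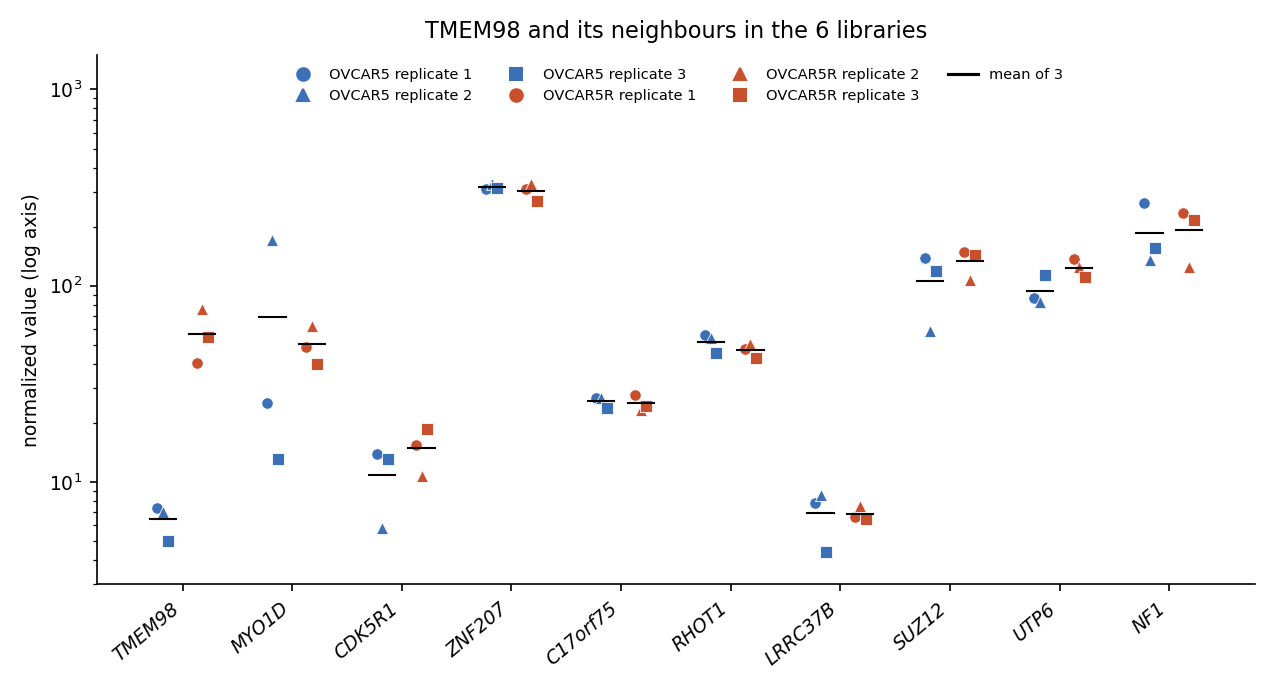
Normalized value (log axis) of TMEM98 and its 9 neighbours in each of the 6 libraries, with OVCAR5 in blue, OVCAR5R in red, a marker shape per replicate number, and a bar at the mean of 3 libraries. TMEM98 was at 5.02 to 7.36 in OVCAR5 and 40.1 to 76.1 in OVCAR5R, whereas the libraries of every neighbour overlapped, with MYO1D at 170 in OVCAR5 replicate 2.

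None of the 9 neighbours passed the test between OVCAR5R and OVCAR5. Their adjusted p-values in limma went from 0.539 for UTP6 to 0.985 for LRRC37B, and 0 of them had an unadjusted p under 0.05. Across all genes tested, 14 genes (0.119%) had an adjusted p under 0.05, 2 of them (0.017%) higher in OVCAR5R, and 1222 (10.4%) had an unadjusted p under 0.05. With so few genes called anywhere, a count of 0 among 9 is what the background gives, and the intervals of the differences say more. The upper 95% bound of the log2 fold change was under 1, a doubling, for 6 of the 9 neighbours: ZNF207, C17orf75, RHOT1, LRRC37B, UTP6, and NF1. Without OVCAR5 replicate 2 it was under 1 for 8 of the 9, and for MYO1D it was 2.15. With all 6 libraries the bound was under the TMEM98 value of 2.92 for all 9, a comparison that the choice of TMEM98 for this change favours. The libraries of the groups overlapped for all 9, where 8.4% of all genes were higher in OVCAR5R without overlap and 8.18% lower. The difference between TMEM98 and a neighbour was itself not tested, since TMEM98 was selected on it.

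The reading of MYO1D, the nearest neighbour, turned on a single library. Its values were 25.3, 170, and 13.1 in OVCAR5 and 48.6, 62.2, and 39.7 in OVCAR5R. The highest of all 6 was OVCAR5 replicate 2, and the other 2 OVCAR5 libraries were below every OVCAR5R library. The mean was higher in OVCAR5 (69.5 ± 87.4 against 50.1 ± 11.3, SD, n = 3 each), whereas the log2 fold change was 0.33 toward OVCAR5R (95% interval −1.50 to 2.17, limma adjusted p = 0.916). Without OVCAR5 replicate 2 the OVCAR5 mean was 19.2 and the log2 fold change 1.39 (standard error 0.32, 95% interval 0.63 to 2.15). The groups then did not overlap, and limma's adjusted p was 0.196 with an unadjusted p of 0.00331, so the call was still not made. Leaving out OVCAR5 replicate 3 turned the direction, to −0.42.

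In that set of 5 libraries, 29 genes (0.246%) had an adjusted p under 0.05 and 1275 (10.8%) an unadjusted p under 0.05, and 13.8% of all genes were higher in OVCAR5R without overlap and 13.7% lower. MYO1D was 1 of the 9 neighbours without overlap and 1 of 9 with an unadjusted p under 0.05. Across the 6 libraries the Pearson r between TMEM98 and MYO1D was 0.22, and across the 5 without OVCAR5 replicate 2 it was 0.93, a description of few points that fall into 2 groups.

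**Figure D2:**
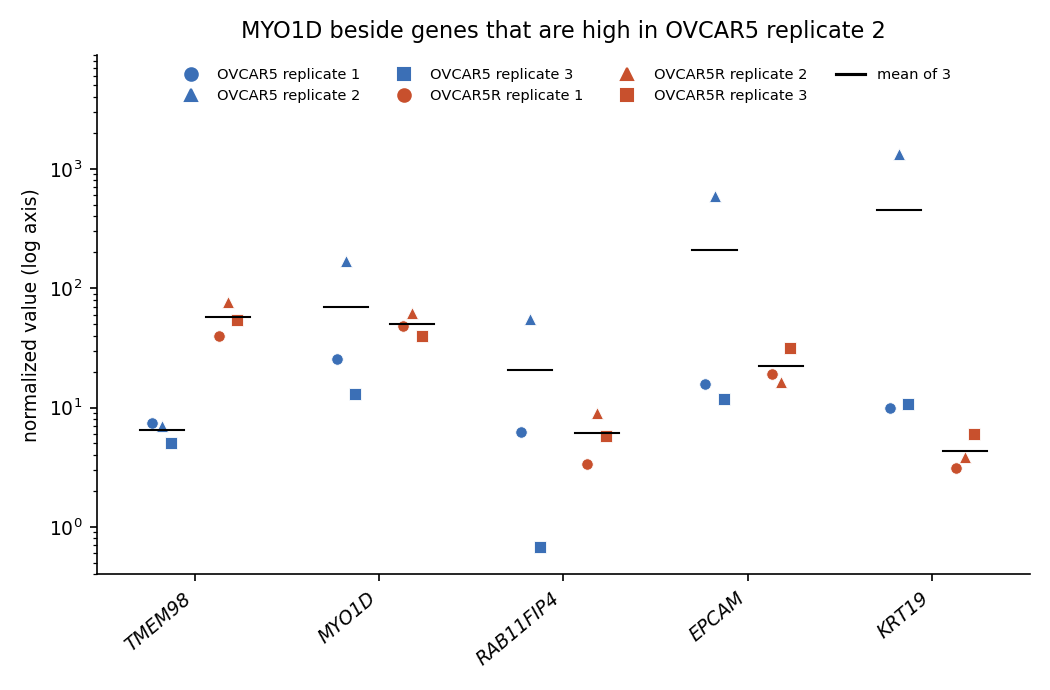
Normalized value (log axis) of TMEM98, MYO1D, RAB11FIP4, EPCAM, and KRT19 in each of the 6 libraries, with OVCAR5 in blue, OVCAR5R in red, and a bar at the mean of 3 libraries. OVCAR5 replicate 2 was the highest library for MYO1D (170), RAB11FIP4 (54.8), EPCAM (597), and KRT19 (1341), and for TMEM98 it lay within its group at 7.04.

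CDK5R1, the CDK5 activator, was at 13.8, 5.79, and 13.0 in OVCAR5 and 15.5, 10.8, and 18.5 in OVCAR5R. Only OVCAR5 replicate 2 was far below the rest, and the log2 fold change of 0.47 (95% interval −0.36 to 1.31, limma adjusted p = 0.683) came to 0.11 without it. SUZ12 had the same shape, at 139, 58.6, and 119 in OVCAR5 and 148, 107, and 143 in OVCAR5R. Its log2 fold change was 0.40 (−0.36 to 1.17, limma adjusted p = 0.702) and 0.03 without OVCAR5 replicate 2. For both genes the difference between the group means thus rested on 1 low library.

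UTP6 came closest to the threshold of the 9 neighbours. It was at 87.0, 82.1, and 113 in OVCAR5 and 136, 124, and 111 in OVCAR5R. Only OVCAR5R replicate 3 fell below the highest OVCAR5 library. The log2 fold change was 0.40 (95% interval −0.08 to 0.87, limma adjusted p = 0.539) and 0.31 without OVCAR5 replicate 2.

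ZNF207, C17orf75, and RHOT1 had the narrowest intervals, and the log2 fold change of each was near 0. ZNF207 was at 310, 329, and 316 in OVCAR5 and 309, 331, and 270 in OVCAR5R (log2 fold change −0.07, 95% interval −0.50 to 0.35). C17orf75, across the 93 bases from it, was at 26.8, 26.9, and 23.8 in OVCAR5 and 27.9, 23.2, and 24.5 in OVCAR5R (−0.04, −0.49 to 0.42). RHOT1 was at 55.7, 54.0, and 45.6 in OVCAR5 and 47.6, 50.7, and 42.9 in OVCAR5R (−0.13, −0.58 to 0.31). The limma adjusted p-values were 0.922, 0.967, and 0.847, and without OVCAR5 replicate 2 the log2 fold changes were −0.05, −0.01, and −0.10.

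LRRC37B and NF1 also had means close to each other, with wider spread. LRRC37B was at 7.77, 8.62, and 4.38 in OVCAR5 and 6.62, 7.51, and 6.45 in OVCAR5R (log2 fold change 0.03, 95% interval −0.66 to 0.73, limma adjusted p = 0.985). NF1 was at 263, 135, and 155 in OVCAR5 and 233, 124, and 216 in OVCAR5R (0.06, −0.71 to 0.83, limma adjusted p = 0.969). In both lines NF1 had 1 library well above another, so its groups covered almost the same range. Without OVCAR5 replicate 2 the log2 fold changes were 0.19 for LRRC37B and −0.13 for NF1. GENCODE names 12 pseudogenes after NF1, 3 after RHOT1, 1 after LRRC37B, and 1 after SUZ12. How reads shared with such copies were assigned is not given in the sources used here, so the levels of these 4 genes are uncertain to that extent.

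**Figure D3:**
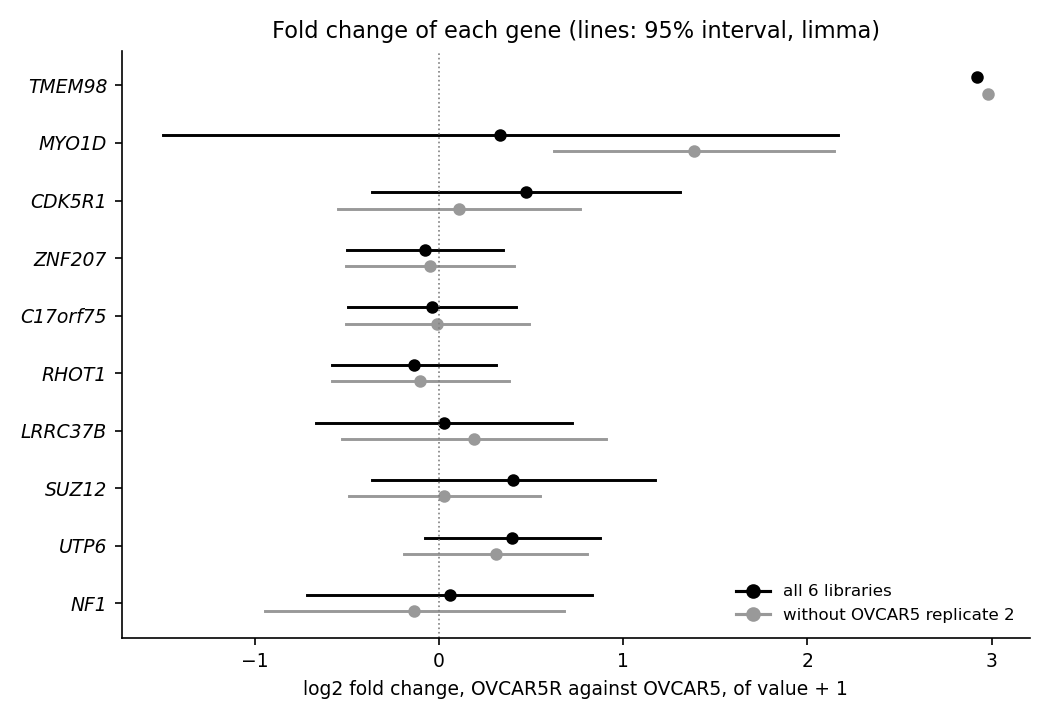
The log2 fold change of value + 1 (OVCAR5R against OVCAR5) of each gene with all 6 libraries in black and without OVCAR5 replicate 2 in grey, where lines are 95% limma intervals and TMEM98 has none because it was chosen for this change. TMEM98 was at 2.92, and the highest upper end of a neighbour's line was 2.17, for MYO1D. The choice of TMEM98 for this change favours its place above these lines.

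All listed genes within 2 Mb of the TMEM98 start were then described. GENCODE places 27 other protein-coding genes in this window, of which 16 were analysed, the 9 neighbours and 7 more. In limma, 0 of the 16 passed at an adjusted p of 0.05 and 1 had an unadjusted p under 0.05. The log2 fold changes went from −0.39 to 0.53, with a median of 0.11 beside −0.01 for all genes tested, and 12 of 16 were higher in OVCAR5R beside 49.2% of all genes. Without OVCAR5 replicate 2 the range was wider, from −0.69 for EVI2A to 1.39 for MYO1D. The median was then 0.07 and 9 of 16 were higher. TMEM98 had the largest change of the 17 genes in the window, a rank that its choice for this change favours.

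PSMD11, a lid subunit of the proteasome, lies between ZNF207 and CDK5R1. With all 6 libraries it had the next largest change in the window. It was at 221.5, 206, and 297 in OVCAR5 and 377, 314, and 350 in OVCAR5R, with every OVCAR5R library above every OVCAR5 library. Its log2 fold change was 0.53 (standard error 0.21), with a limma unadjusted p of 0.0367 and an adjusted p of 0.448, and it was 0.43 without OVCAR5 replicate 2. COPRS, which binds the arginine methyltransferase PRMT5, and the ubiquitin ligase RNF135 were the other genes of the window without overlap, at log2 fold changes of 0.40 and 0.34, and 0.37 and 0.38 without OVCAR5 replicate 2. These 3 of 16 genes were higher without overlap, beside 8.4% of all genes, and none was lower without overlap. Without OVCAR5 replicate 2, MYO1D joined them, so 4 of 16 were higher and 0 lower, beside 13.8% and 13.7% of all genes.

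RAB11FIP4, a partner of the endosomal GTPase RAB11, had the lowest log2 fold change of the window with all 6 libraries. It was at 6.21, 54.8, and 0.68 in OVCAR5 and 3.37, 9.07, and 5.80 in OVCAR5R. As for MYO1D, the highest library was OVCAR5 replicate 2, and the log2 fold change went from −0.39 to 0.94 without it. The remaining listed genes on this side, EVI2B and EVI2A, lie within NF1 on the opposite strand and had log2 fold changes of 0.14 and 0.03, and −0.27 and −0.69 without OVCAR5 replicate 2. Whether reads were counted by strand is not given in the sources used here, so their reads and those of NF1 may not be fully separate.

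On the other side of TMEM98 the analysed genes were sparse. The nearest was CCL2, a chemokine that attracts monocytes, 1327 kb away. It was at 105, 10.9, and 23.1 in OVCAR5 and 4.69, 163, and 37.0 in OVCAR5R, and both the lowest and the highest library were of OVCAR5R. Its log2 fold change was 0.08 (standard error 1.20), and −0.62 without OVCAR5 replicate 2, too uncertain to place this side of the locus. Of the 2 protein-coding genes annotated between TMEM98 and CCL2, neither was analysed here. The statement that neighbours did not pass the test therefore covers, in practice, the side toward MYO1D and NF1.

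The median changed little with the width of the window. The first analysed genes beyond it were TEFM at −2021 kb, on the side of NF1, and ZNF830 at 2034 kb on the other side, with log2 fold changes of 0.37 and 0.00. ADAP2, described below, starts beside TEFM at −2022 kb and had a log2 fold change of 1.41. With all 6 libraries, the highest value thus depends on where the window ends. The narrower window of 1 Mb held 8 genes with a median of 0.18, and the wider one of 5 Mb held 89 genes with a median of 0.14 (0.07 and 0.11 without OVCAR5 replicate 2). Over the 757 other genes tested on chromosome 17 the median was 0.09, and 0.14 without that library, and 63.3% of them were higher in OVCAR5R. The median near TMEM98 was thus close to that of the whole chromosome, and far below the TMEM98 value.

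Within 5 Mb, TMEM98 had the largest change of 90 genes, a rank that its choice for this change favours. Of the 89 others, 4 (4.49%) had a log2 fold change beyond 1 in either direction, beside 5.97% of all genes tested. The highest of these others was ADAP2, which binds phosphoinositides and ARF GTPases, at −2022 kb from TMEM98, and the lowest was SLFN11, a protein that blocks stressed replication forks, at 2446 kb. Both were chosen after their values were seen. ADAP2 was at 8.67, 4.08, and 5.52 in OVCAR5 and 15.6, 14.6, and 22.2 in OVCAR5R (log2 fold change 1.41, limma adjusted p = 0.232). SLFN11 was at 35.7, 35.5, and 28.2 in OVCAR5 and 18.8, 3.61, and 7.62 in OVCAR5R (−1.88, limma adjusted p = 0.289). Neither gene's libraries overlapped between the groups, and their values differed in opposite directions, by 1.19 and −1.83 without OVCAR5 replicate 2. On the whole chromosome TMEM98 ranked 5 of 758 genes by the size of its change, and the largest was that of ALDH3A1 (−4.26). This rank turned on OVCAR5 replicate 2, without which TMEM98 had the largest change, at 2.98 beside −2.71 for ALDH3A1.

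**Figure D4:**
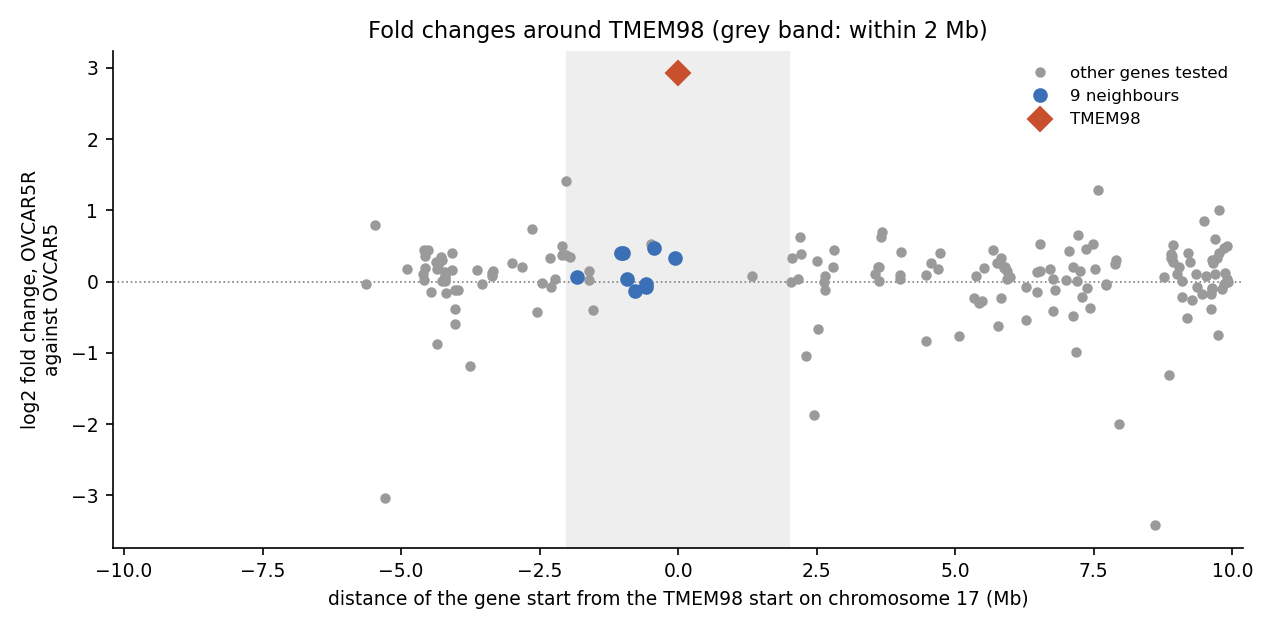
Log2 fold change of value + 1 (OVCAR5R against OVCAR5) of each tested gene against the distance of its start from the TMEM98 start on chromosome 17 in Mb, with TMEM98 as a red diamond, its 9 neighbours in blue, and a grey band over the 2 Mb window. With all 6 libraries TMEM98 stood at 2.92, and the 16 other genes of the band lay between −0.39 and 0.53. Without OVCAR5 replicate 2, which is not drawn, they lay between −0.69 and 1.39.

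The same was read library by library, relative to the OVCAR5 mean of each gene. The median over the 9 neighbours was 0.11, 0.05, and −0.11 in the OVCAR5 libraries and 0.31, 0.07, and 0.03 in the OVCAR5R libraries on the log2 scale. Over all analysed genes within 2 Mb it was 0.04, −0.12, and 0.03 in OVCAR5 and 0.33, 0.16, and 0.23 in OVCAR5R. Every OVCAR5R library was there above every OVCAR5 library, a small difference that was not tested. Over all genes tested the medians were −0.01 to 0.00 in OVCAR5 and 0.01 in OVCAR5R. TMEM98 stood at 0.18, 0.12, and −0.30 in OVCAR5 and at 2.48, 3.38, and 2.91 in OVCAR5R. OVCAR5R replicate 2 had the highest TMEM98 and OVCAR5R replicate 1 the highest median of the neighbours, so the order of the resistant libraries was not the same. In OVCAR5 the order was the same. MYO1D taken alone was, like TMEM98, highest in OVCAR5R replicate 2 among the resistant libraries.

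Genes that work with the members were described from lists of their partners, 79 genes of which 61 were tested. None had an adjusted p under 0.05 in limma, and 3 had an unadjusted p under 0.05 (TCF7, KIF5C, and RASA1), beside 10.4% of all genes. Their median log2 fold change was 0.11, and 36 of 61 were higher in OVCAR5R, while without OVCAR5 replicate 2 the median was −0.02 and 29 were higher. Without overlap, 1 was higher and 6 were lower, beside 8.4% and 8.18% of all genes, and without OVCAR5 replicate 2 these were 3 and 12, beside 13.8% and 13.7%. For most lists the gene with the largest change is named.

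Of the TMEM98 partners and Wnt genes, 8 of 16 were tested, with a median of −0.11, 4 of them higher in OVCAR5R and 4 lower. FRAT2, which keeps GSK3 from its substrates, was at 2.51, 6.89, and 2.40 in OVCAR5 and 2.41, 2.53, and 1.47 in OVCAR5R (log2 fold change −0.55, limma adjusted p = 0.675), and −0.16 without its high value in OVCAR5 replicate 2. MYRF, the transcription factor that TMEM98 binds, was at 185, 178, and 230 in OVCAR5 and 99.0, 171, and 143 in OVCAR5R. All 3 OVCAR5R libraries were below all OVCAR5 libraries, with a log2 fold change of −0.55 (limma adjusted p = 0.493). TCF7, a transcription factor of the Wnt pathway, also did not overlap, at 33.4, 29.5, and 32.0 in OVCAR5 and 21.4, 23.1, and 22.9 in OVCAR5R (−0.48, limma adjusted p = 0.449). Without OVCAR5 replicate 2 the log2 fold changes were −0.62 for MYRF and −0.52 for TCF7. These 2 of the 8 tested genes were lower without overlap, beside 8.18% of all genes, and 0 were higher without overlap. MYRF and TCF7 were named after their values were seen, and neither passed the test.

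Partners of the neighbours that act on membranes and motors did not pass the test. For the 3 tested class I myosins beside MYO1D the median of the log2 fold changes was 0.16, and 0.20 without OVCAR5 replicate 2. The kinase CDK5 was at 16.8, 23.2, and 15.0 in OVCAR5 and 7.13, 17.4, and 15.4 in OVCAR5R (−0.50, limma adjusted p = 0.655), with its activator CDK5R1 described above at 0.47. All 3 genes listed as partners of C17orf75 around the WDR11 complex had positive values, led by FAM91A1 at 0.40 (adjusted p = 0.679). Among 8 tested partners of RHOT1, the kinesin KIF5C was at 2.87, 1.59, and 1.06 in OVCAR5 and 2.83, 4.34, and 6.95 in OVCAR5R, a low level with overlap between the groups (0.99, adjusted p = 0.451). Both tested LRRC37 genes were lower without overlap, LRRC37A2 at −0.46 (adjusted p = 0.489), and as near copies of each other they may share reads. Without OVCAR5 replicate 2 the log2 fold changes were −0.32 for CDK5, 0.08 for FAM91A1, 0.95 for KIF5C, and −0.44 for LRRC37A2.

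None of the nuclear partners passed the test either. The 6 BUB3 and checkpoint genes had a median of 0.26, and −0.00 without OVCAR5 replicate 2, with MAD2L1, which holds back the anaphase activator, at −0.52 (limma adjusted p = 0.541). The 12 PRC2 genes beside SUZ12 had a median of 0.07, 6 of them higher and 6 lower, with the accessory subunit gene LCOR at −0.41 (adjusted p = 0.743). Of the subunits that join UTP6 in the UTPB complex, 4 were tested with a median of 0.37, and 0.14 without OVCAR5 replicate 2, and UTP18 had the largest change at 0.46 (adjusted p = 0.496). Leaving out OVCAR5 replicate 2 gave −0.78 for MAD2L1, −0.50 for LCOR, and 0.38 for UTP18.

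The list beside NF1 held the largest change of any partner. RASA1, which like NF1 stimulates GTP hydrolysis by RAS, was at 231, 164, and 279 in OVCAR5 and 93.8, 61.1, and 38.6 in OVCAR5R. Every OVCAR5R library was below every OVCAR5 library. The log2 fold change was −1.84, and −2.05 without OVCAR5 replicate 2, but the limma adjusted p was 0.154. The other 10 tested genes of that list had log2 fold changes between −0.39 for RASA3 and 0.72 for SPRED3, and their groups overlapped. In the 5 libraries other than OVCAR5 replicate 2, RASA3 was at −0.71 without overlap (limma adjusted p = 0.346) and SPRED3 at 0.09.

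The genes whose values ran most like those of TMEM98 over the 6 libraries were on other chromosomes. By Pearson r on log2(value + 1) the first 5 were NACAD on chromosome 7 (r = 0.996), ATG14 (0.994) and FBXO34 (0.992) on chromosome 14, PVT1 on chromosome 8 (0.980), and AC004846.1 on chromosome 14 (0.978). ATG14, part of the complex that starts autophagosomes, was at 8.96, 7.79, and 6.56 in OVCAR5 and 15.9, 22.2, and 18.7 in OVCAR5R, in the same order of libraries as TMEM98. FBXO34 is the next gene along chromosome 14 from ATG14. The log2 fold changes of the 5 were 1.56, 1.18, 1.12, 0.79, and 1.42, each smaller than that of TMEM98. Of all genes tested, 33 had an r above 0.95, and with 6 points in 2 groups genes that differ between the lines tend to come out alike. Among the 16 genes near TMEM98 the highest r was 0.78, for COPRS, which ranked 551 of all genes. This order also turned on OVCAR5 replicate 2, since without it the r of COPRS was 0.73 and that of MYO1D, given above, was higher.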

How the data were processed

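RNA-seq of 3 cultures of OVCAR5 and 3 of OVCAR5R was analyzed from the deposited table. The authors deposited normalized signal values on a linear scale, 12309 rows by gene symbol, of which 1 was an identical copy of another. Quartile normalization and a log transform are named in the methods, and the submitters' processing notes name the build hg38. The aligner, annotation, and gene filter are not given in the sources used here. Within a library, 62.1% to 67.1% of values were whole multiples (within 0.01) of what 1 estimated read was worth, so tests for counts were not used, and depth was estimated from these steps. With 3 libraries a group the spread between cultures limits precision.

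On the log2(value + 1) scale, the 11766 genes that reached 1 in 3 or more libraries were tested, two-sided, with limma version 3.58.1 in R version 4.3.3 (eBayes with trend, no covariates), with Benjamini-Hochberg adjustment at 0.05. The Mann-Whitney test named in the paper cannot give a p under 0.1 with 3 against 3. The script was tested on simulated data. Positions came from GENCODE release 29 by symbol (12223 of 12308 rows, which held 12305 different symbols) and promoters from RefSeq. Figures were drawn with matplotlib version 3.10.9.

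Named genes were the 10 members, in the 2 Mb window the nearest on each side and those with the highest and lowest change, the largest change of each partner list, and the 5 genes most like TMEM98. PSMD11, CCL2, and RAB11FIP4 came from this rule, and COPRS, RNF135, EVI2A, EVI2B, TEFM, ZNF830, ADAP2, SLFN11, ALDH3A1, MYRF, TCF7, RASA3, and SPRED3 were named after their values were seen. One partner gene picked by the rule is left out. The members and lists were chosen with earlier results of these data known. Alternatives were 2 other filters, a pseudocount of 0.1, quantile normalization, limma without trend, the replicate number as a block, windows of 1 and 5 Mb, Spearman's rho, and each library left out in turn.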

Additional observations from a re-analysis of the deposited data

How the results depend on the processing

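None of the 9 neighbours and none of the tested partner genes was called by limma under any of 12 alternatives. The log2 fold change of TMEM98 was 2.69 to 3.15 with a library left out and 2.92 to 3.09 otherwise. The number of genes called among all tested was 14, and 5 with the replicate number as a block. Residuals of libraries with the same number had correlations of −0.004, 0.176, and −0.119, against −0.193 to 0.251 for different numbers. Such correlations across all genes cannot show whether the cultures were paired. The block changed no call of a neighbour, and it moved standard errors both ways, from 0.79 to 0.56 for MYO1D and from 0.21 to 0.23 for UTP6. With a library left out the number of genes called was 0 (OVCAR5R replicate 3) to 29 (OVCAR5 replicate 2). It was 3 without OVCAR5 replicate 1 and 4 and 2 without OVCAR5R replicates 1 and 2. Where 0 genes were called, fewer libraries entered the fit. The window median was 0.071 to 0.26 with a library left out, the highest without OVCAR5R replicate 2. By Spearman's rho, 3 of the 5 genes most like TMEM98 had a rho of 1, as had 11 genes in all. Genes near 0 changed sign, and quantile normalization brought C17orf75 to 0.0031. With a library left out, their ranges were −0.14 to 0.0077 for ZNF207, −0.11 to 0.018 for C17orf75, −0.23 to 0.19 for LRRC37B, and −0.13 to 0.34 for NF1. Far wider ranges across 0 were −0.42 to 1.39 for MYO1D, −1.09 to 1.34 for CCL2, and −1.58 to 0.94 for RAB11FIP4. The standard errors of these genes with all 6 libraries were 0.79, 1.20, and 1.09, so their direction was not settled. The cause was not tested.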
